A study of Homo sapiens with 18 samples.

Results

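The genes described here copy the genome. They were 49 genes of DNA replication, chosen by name from a list of origin licensing, replication fork, nucleotide supply and chromatin assembly factors, and found by symbol among the 22034 genes of the count table. All 49 had enough counts to be tested. RNA-seq of ribosomal RNA-depleted total RNA was carried out on 18 samples of VCaP, an established human prostate cancer line that carries the TMPRSS2:ERG fusion and expresses the transcription factor ERG from it. A VCaP line with a doxycycline-inducible hairpin against ERG (the shERG line) received DMSO (shERG-DMSO, n = 3) or 1 µg/mL doxycycline (Dox, n = 3). Parental VCaP cells received DMSO (n = 3) or 50 µM PBITE-1, a small molecule that the study describes as a ligand of the ERG Pointed domain, for 4 h, 8 h or 12 h (n = 3 each). The labels give neither a duration for Dox nor a collection time for the DMSO samples. No sample with Dox in cells lacking the hairpin was analysed here, so the hairpin and doxycycline cannot be told apart, and the line and the experiment cannot be told apart either.

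Replication starts with licensing. In G1 phase the origin recognition complex (ORC), CDC6 and CDT1 load the ring of MCM2 to MCM7 onto DNA, and geminin (GMNN) binds CDT1 to block a new round of loading. In S phase the kinase CDC7 with its activator DBF4, together with CDC45, the GINS complex and MCM10, turns the loaded ring into a moving helicase. The primase and the polymerases alpha, delta and epsilon then copy the strands, held by the clamp PCNA that RFC loads, while RPA coats single strands. Ribonucleotide reductase (RRM1, RRM2), thymidylate synthase (TYMS), thymidine kinase (TK1) and dUTPase (DUT) supply the nucleotides. Many of these genes are known targets of the E2F family, which is active as cells pass from G1 into S phase. In bulk samples, fewer cells in S phase and less RNA of these genes per cell cannot be told apart.

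Totals ranged from 11308600 to 17483423 counts per sample, and the lowest count of any of the 49 genes in any sample was 23, for POLE2 at 12 h of PBITE-1. The targeted gene, ERG, was at 461, 449 and 433 CPM (read counts scaled to a library of 1000000 reads) in shERG-DMSO and at 166, 167 and 159 CPM in Dox (log2 fold change -1.44, SE 0.04). In the parental cells ERG was lower than in DMSO by 0.68, 1.62 and 1.58 on the log2 scale at 4, 8 and 12 h. All 9 prostate luminal markers were expressed. Their summed level was 10151 to 10388 CPM in shERG-DMSO and 6246 to 6472 CPM in Dox. It was 7283 to 7411 CPM in DMSO and 3114 to 3703 CPM at 12 h. Gene by gene, 4 of the 9 were lower and 4 higher after Dox (35.3% and 35.1% of all genes), with the median at -0.02. At 12 h 7 were lower and 1 higher (39.4% and 39.4%), with the median at -1.05. The part of these markers in the results was not tested. The 4 summed fibroblast markers were at 1.35 to 2.32 CPM in shERG-DMSO, 7.52 to 8.86 CPM in Dox, 1.89 to 2.96 CPM in DMSO and 5.31 to 9.28 CPM at 12 h, and their part in the results was not tested. Of these 4 markers 2 had enough counts to be tested, and both were higher after Dox (median log2 fold change 2.07). Summed endothelial markers were at 2.08 CPM or less in every sample and PTPRC of leukocytes at 0.269 CPM or less. No library was left out. For 13 of the 49 genes, exons overlap those of a neighbouring gene, and for 12 of these at least 1 neighbour is on the opposite strand. The use of strand in counting is not stated, so part of the counts of DBF4, MCM2, MCM7, TYMS, GINS2, PRIM1, CHAF1A, FEN1, RFC4, RFC5, RPA1 and RPA3 could come from the neighbour. CHAF1B overlaps a neighbour on its own strand.

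After Dox, every one of the 49 replication genes fell. The genes together took 6198, 6172 and 6039 CPM in the 3 shERG-DMSO samples and 2499, 2484 and 2538 CPM in the 3 Dox samples. All 49 were lower at an adjusted p under 0.05 and 0 were higher, against 35.3% lower and 35.1% higher of the 14164 genes tested (limma-voom, Benjamini-Hochberg). The count of higher genes was also 0 at an unadjusted p under 0.05, with edgeR and with DESeq2. With the added criterion of a log2 fold change below -1, 35 of the 49 passed, against 7.19% of all genes. The median log2 fold change was -1.33 over the 49 genes and 0.02 over all genes. Scaled by library size alone, the median of all genes moved to 0.28 and the split of calls from 5005 lower and 4969 higher to 3184 lower and 7247 higher. On that scale the median of the 49 genes was -1.07, and only ORC2 was no longer called.

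With PBITE-1 most of the same genes fell, in steps. Their summed level was 5714, 5574 and 5629 CPM in DMSO, 5558, 5501 and 5518 CPM at 4 h, 4930, 4815 and 4836 CPM at 8 h, and 2726, 2712 and 2730 CPM at 12 h. All treated samples lay below all DMSO samples, by little at 4 h and with the widest gap between 8 h and 12 h. At 4 h, 18 genes were lower (24.7% of all genes) and 10 higher (26.4%), and 0 were past the fold threshold on the lower side (2.99%), the most negative being FEN1 at -0.45. At 8 h, 30 were lower (37.0%), 11 higher (35.9%), and 3 lower past the fold threshold (8.86%), namely MCM3, MCM5 and POLE2. The 10 and 11 higher genes and the 3 past the fold threshold stand below the shares of all genes and are no result about the 49. At 12 h, 44 were lower (39.4%), 2 higher (39.4%), and 27 lower past the fold threshold (15.4%). The median log2 fold change of the 49 genes was -0.05, -0.30 and -1.11 at the 3 times, while that of all genes stayed between -0.02 and -0.01. All 3 times were compared with the same DMSO samples, which have no stated collection time. Time with PBITE-1 and time in culture or collection therefore cannot be told apart, here or in the tests between times.

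Tested directly between times, the 8 h samples had 31 of the 49 genes lower than the 4 h samples (26.3% of all genes) and 6 higher (26.7%). The 6 were ORC6, CDC6, GMNN, DBF4, TK1 and ASF1B. From 8 h to 12 h, 48 genes were lower (32.5%) and 0 higher (27.8%), and 19 of them fell past the fold threshold (6.59%). The exception was ORC2, at -0.07 (SE 0.06). From 4 h to 12 h, 48 genes were again lower (35.0%) and 0 higher (35.0%), and here the exception was DBF4, at 0.06 (SE 0.05). Both counts of 0 were also 0 at an unadjusted p under 0.05, with edgeR and with DESeq2.

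**Figure D1:**
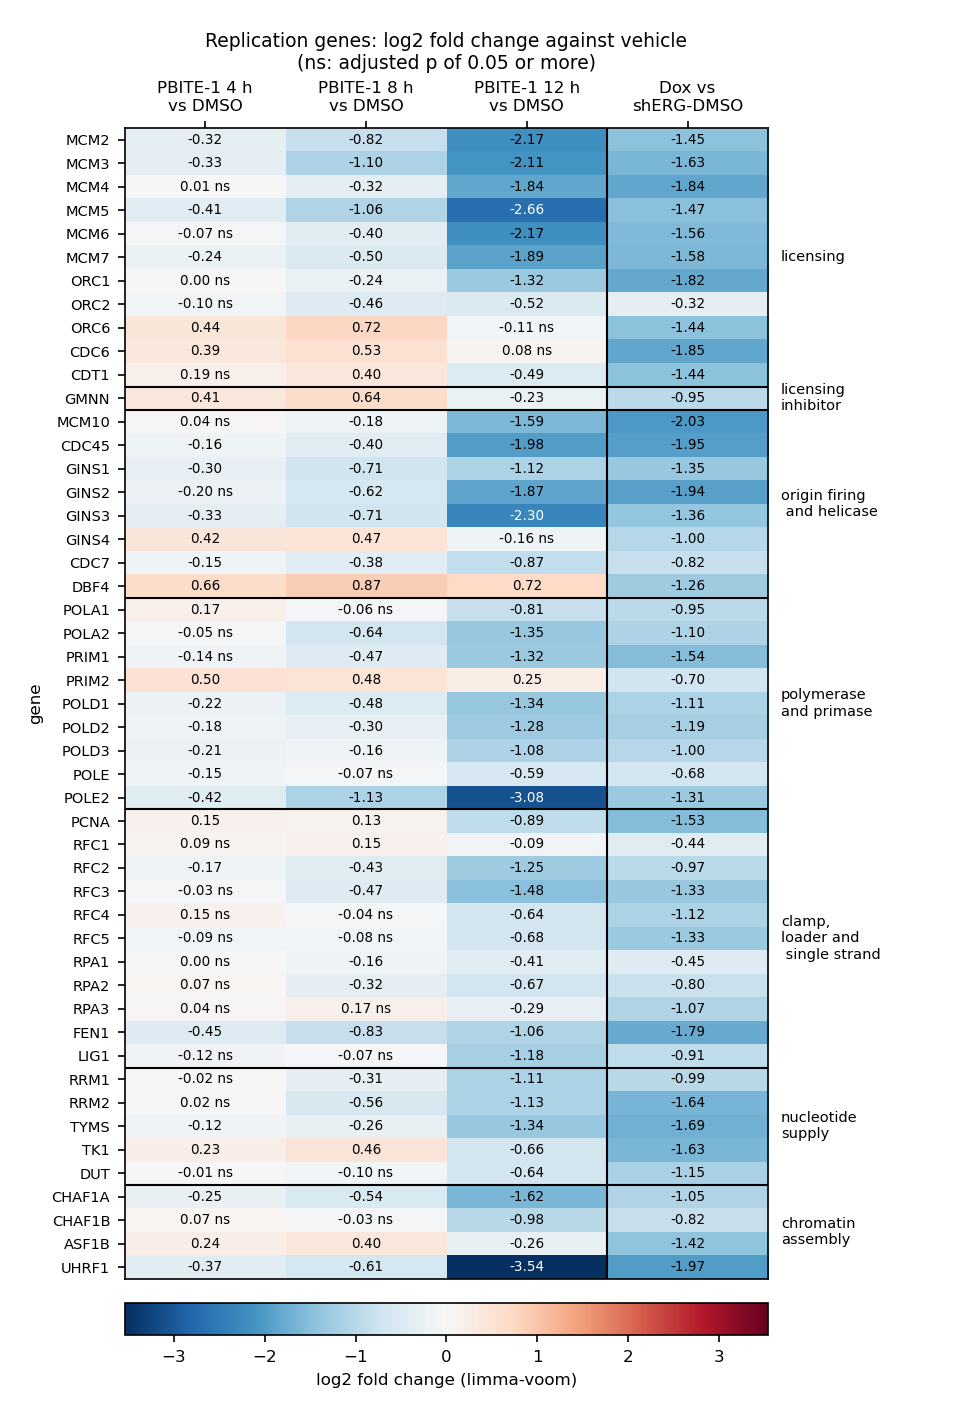
Log2 fold change of the 49 genes (rows, by role) in the 4 comparisons with vehicle (columns), each cell with its value and "ns" where the adjusted p was 0.05 or more. The Dox column is blue throughout, from -0.32 for ORC2 to -2.03 for MCM10, whereas the 4 h and 8 h columns hold both colours.

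At 12 h the median log2 fold change was -1.84 over the 11 licensing genes, -1.36 over the 8 genes of origin firing and the helicase, -1.28 over the 9 polymerase and primase genes, -0.68 over the 11 genes of the clamp, its loader and single-strand handling, -1.11 over the 5 nucleotide supply genes and -1.30 over the 4 chromatin assembly genes. The licensing group was split at 12 h, with medians of -2.14 over MCM2 to MCM7 and -0.49 over the ORC genes, CDC6 and CDT1. After Dox these 2 medians were -1.57 and -1.44. The 28 fork genes (firing, polymerase and clamp groups) had a median of -1.07 at 12 h and -1.12 after Dox. After Dox the nucleotide supply group had the most negative median, -1.63, followed by licensing at -1.56. Of the licensing genes 4 were lower and 2 higher at 4 h, 8 and 3 at 8 h, and 9 and 0 at 12 h. Of the fork genes 11 were lower and 5 higher at 4 h, 17 and 5 at 8 h, and 25 and 2 at 12 h. Of the nucleotide supply genes 1 was lower and 1 higher at 4 h, 3 and 1 at 8 h, and 5 and 0 at 12 h. Over all genes the shares lower and higher were 24.7% and 26.4% at 4 h, 37.0% and 35.9% at 8 h, and 39.4% and 39.4% at 12 h, so that counts such as those of the nucleotide supply genes at 4 h stand near them or below and are no result about the group. The medians describe the groups and were not tested against each other.

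**Figure D2:**
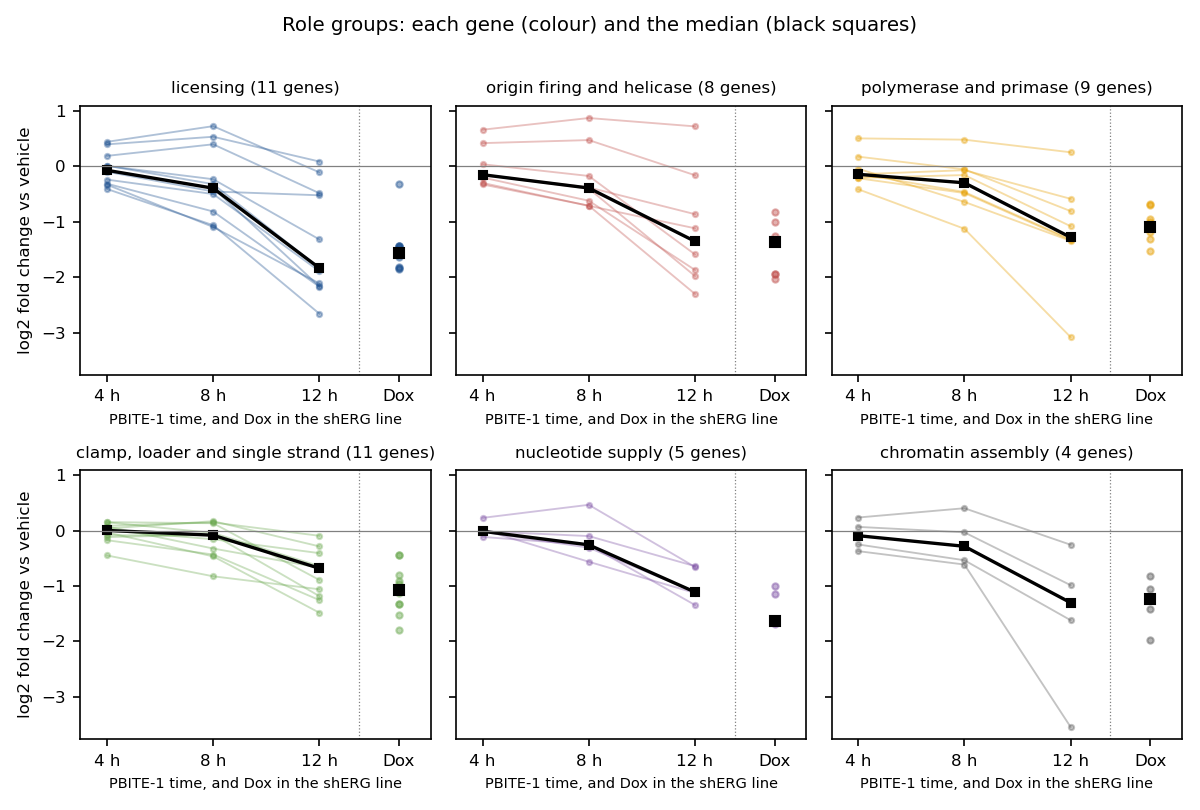
Log2 fold change against vehicle (y axis) of each gene (colour) and of the group median (black squares) at 4, 8 and 12 h of PBITE-1 and after Dox (x axis), for 6 role groups. The medians at 4 h sit close to 0, between -0.15 and 0.00, and drop between 8 h and 12 h to between -0.68 and -1.84.

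The MCM2 to MCM7 genes encode the 6 subunits of the replicative helicase ring. At 4 h 4 of the 6 were lower (24.7% of all genes), and all 6 were at 8 h (37.0%) and at 12 h (39.4%), by unlike amounts. MCM5 was at 82.7, 84.5 and 78.5 CPM in DMSO, 62.6, 60.5 and 61.5 CPM at 4 h, 38.9, 37.2 and 41.8 CPM at 8 h, and 13.2, 12.9 and 12.7 CPM at 12 h. Each time lay below the one before with no overlap, and at 12 h MCM5 was 6.32-fold lower than in DMSO (log2 fold change -2.66, SE 0.09, adjusted p = 6.5e-27). MCM4 followed another course, with 460, 459 and 455 CPM in DMSO, 465, 451 and 467 CPM at 4 h, 373, 355 and 370 CPM at 8 h, and 128, 131 and 126 CPM at 12 h. For MCM4 the 4 h and DMSO samples overlapped (0.01, adjusted p = 0.83), and MCM6 was likewise not called at 4 h (-0.07, adjusted p = 0.15). On the scale of library size MCM6 was called lower at 4 h (-0.12, adjusted p = 0.0148).

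MCM2 was at 155, 162 and 152 CPM in DMSO and 35.3, 33.7 and 35.0 CPM at 12 h, and MCM7 at 309, 308 and 301 CPM in DMSO and 83.9, 80.2 and 82.8 CPM at 12 h. MCM6 was at 194, 181 and 179 CPM in DMSO, 140, 140 and 140 CPM at 8 h and 37.8, 42.6 and 42.4 CPM at 12 h, so that most of its fall came after 8 h. At 12 h the other MCM genes were close to each other, at -2.17 for MCM2, -2.11 for MCM3, -2.17 for MCM6 and -1.89 for MCM7, with SE of 0.04 to 0.06. MCM3 had the most negative value of the 6 genes at 8 h (-1.10), at 81.0, 80.1 and 76.9 CPM against 168, 169 and 172 CPM in DMSO, which is 2.14-fold lower. After Dox the 6 genes lay within a narrower range, from -1.45 for MCM2 to -1.84 for MCM4. Per kilobase of all annotated exons, a length that need not be that of the RNA in these cells, MCM5 had the lowest level of the 6 in every group. The ratio of the highest to the lowest gene was 6.24 in DMSO and 10.7 at 12 h, against 7.21 in shERG-DMSO and 6.15 in Dox.

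**Figure D3:**
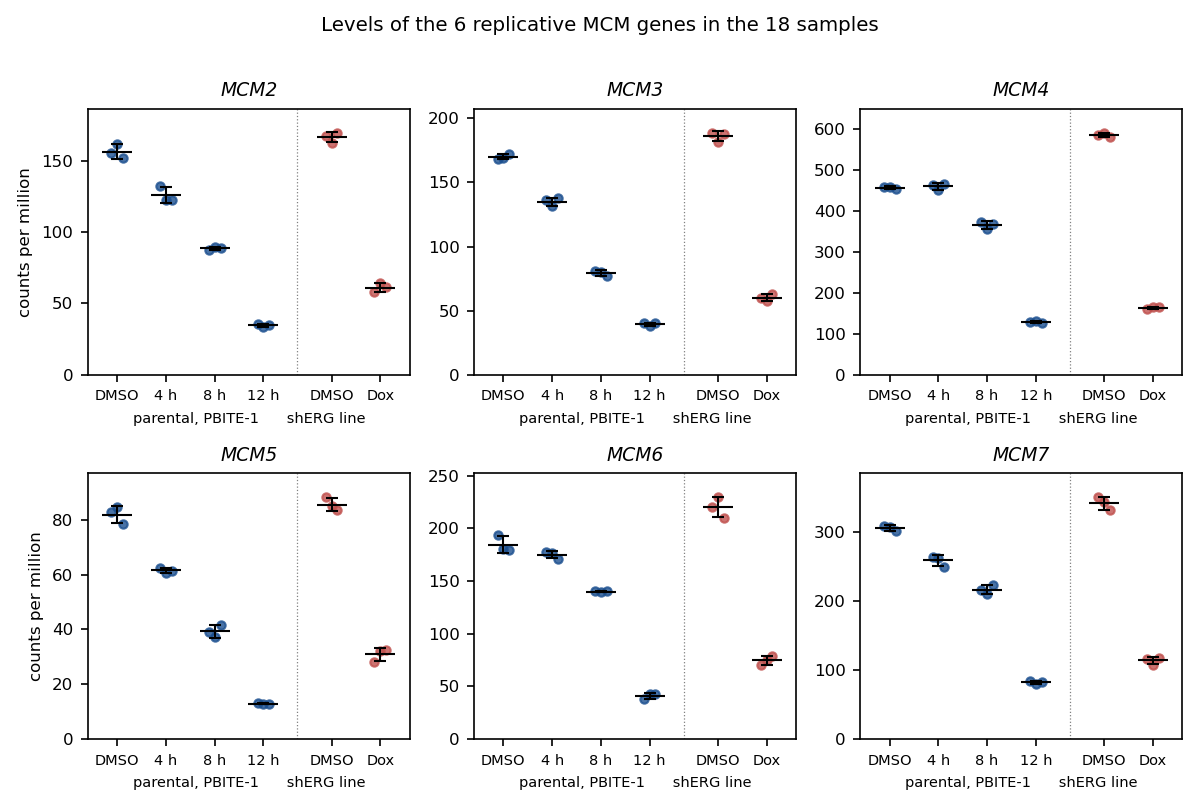
CPM (y axis, from 0) of MCM2 to MCM7 in each sample (points), with the mean and SD (black, n = 3), in DMSO, at 4, 8 and 12 h of PBITE-1 and in the 2 groups of the shERG line. All 6 genes are lowest in the parental series at 12 h, where MCM5 is near 13 CPM and MCM4 near 128 CPM.

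Of the factors that load the ring, CDC6, ORC6 and CDT1 were higher at 8 h. CDC6, the ATPase that joins ORC to recruit the MCM ring, was at 152, 146 and 154 CPM in DMSO, 196, 202 and 197 CPM at 4 h, 218, 217 and 219 CPM at 8 h, and 149, 176 and 156 CPM at 12 h. It was higher at 4 h (0.39, SE 0.05, adjusted p = 3.7e-09) and at 8 h (0.53, SE 0.05, adjusted p = 3.3e-13), and the 12 h samples overlapped DMSO (0.08, adjusted p = 0.10). Without the first 12 h sample this value was 0.13 with an adjusted p of 0.0106, and with any other single sample left out it was not called. A call at 12 h thus depended on leaving out that 1 library. After Dox, in contrast, CDC6 had the most negative change of the licensing group, from 158, 164 and 156 CPM to 43.0, 41.7 and 48.3 CPM (-1.85, 3.60-fold lower).

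ORC6, the smallest ORC subunit, was at 40.9, 39.4 and 39.6 CPM in DMSO, 55.6, 52.3 and 54.8 CPM at 4 h, 70.7, 60.4 and 66.6 CPM at 8 h, and 37.1, 37.0 and 36.9 CPM at 12 h. The 4 h and 8 h samples lay above DMSO (0.44 and 0.72), and the 12 h value of -0.11 was not called (adjusted p = 0.14). ORC6 was called lower at 12 h on the scale of library size (-0.15, adjusted p = 0.0458) and with all 18 samples in 1 fit (-0.15, adjusted p = 0.0414). CDT1, which brings the MCM ring to the origin, was at 14.3, 15.3 and 12.7 CPM in DMSO and 18, 20.2 and 16.9 CPM at 8 h, a change of 0.40 (SE 0.10, adjusted p = 0.00065). At 12 h CDT1 was at 9.60, 9.74 and 10.6 CPM, below DMSO (-0.49, adjusted p = 0.00029). With Dox, ORC6 and CDT1 both fell by 1.44 on the log2 scale.

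ORC1, the largest ORC subunit, was at 0.00 at 4 h (adjusted p = 0.97), fell to -0.24 at 8 h and to -1.32 at 12 h, and was at -1.82 after Dox, beside 0.01, -0.32, -1.84 and -1.84 for MCM4. ORC2 had the smallest response of the licensing group to Dox, with 95.7, 102 and 92.6 CPM in shERG-DMSO and 76.7, 76.4 and 80.2 CPM in Dox (-0.32, SE 0.05), a call that did not hold on the scale of library size (-0.05, adjusted p = 0.328). GMNN, the inhibitor of CDT1, was at 57.1, 51.4 and 54.9 CPM in DMSO, 87.8, 83.3 and 82.9 CPM at 8 h and 44.7, 48.7 and 45.4 CPM at 12 h. Its log2 fold changes were 0.41, 0.64 and -0.23 at the 3 times and -0.95 after Dox, each past the test.

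**Figure D4:**
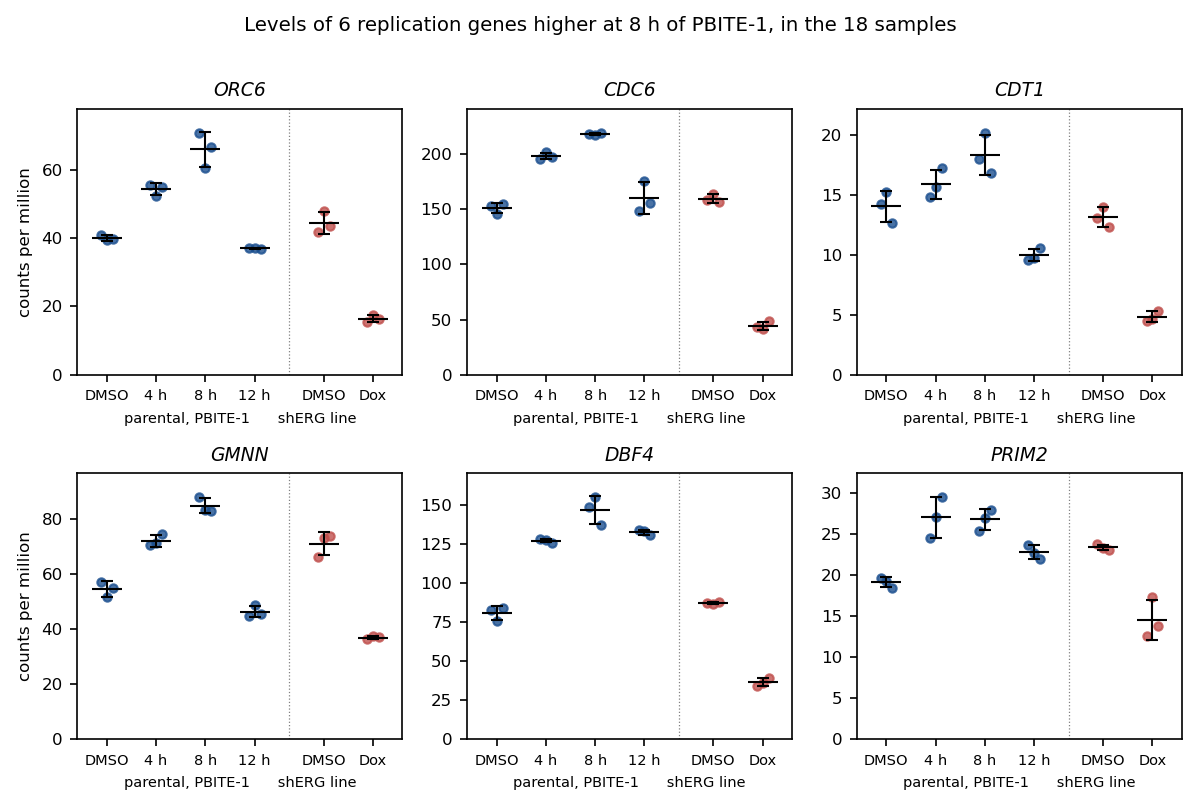
CPM (y axis, from 0) of ORC6, CDC6, CDT1, GMNN, DBF4 and PRIM2 in each sample (points), with the mean and SD (black, n = 3), in the same 6 groups. These genes were chosen as higher at 8 h of PBITE-1, so the 8 h mean lies above the DMSO mean in each panel. The Dox mean lies below the shERG-DMSO mean, as it did for all 49 genes. DBF4 stays near 132 CPM at 12 h against 80.5 CPM in DMSO.

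The promoters of these genes were searched for short letter strings on both strands, in the 300 bases that RefSeq (GRCh38.p14) gives around each annotated start, 250 before it and 50 after it. A window was held for 43 of the 49 genes, 59 windows in all, since 11 genes had more than 1 start. None was held for GINS4, MCM4, MCM5, POLD3, RPA2 and RPA3. Strings of the E2F type (TTTCCCGC, TTTGGCGC, TTTCGCGC or TTTGCCGC, which can overlap on opposite strands) were present in 37.3% of the 59 windows and in 3.31% of the 35116 windows of all genes. By gene, 21 of 43 held one, among them the 4 genes of MCM2 to MCM7 for which a window was held (MCM2, MCM3, MCM6 and MCM7), whereas the window of MCM10 held 0. In lists kept for comparison, E2F-type strings were in 26.2% of the windows of other replication genes and 26.1% of those of G1/S regulators. For mitotic genes the share was 11.1%. Strings of the CHR type (TTTGAA or TTTCGAA), known from promoters of mitotic genes, were in 6.78% of the windows of the replication genes, in 66.7% of the 27 windows held for 23 mitotic genes listed for comparison and in 15.7% of all windows. The ETS core CCGGAA, the type of string bound by ERG and its relatives, was in 28.8% of the windows of the replication genes, in 25.9% of those of the mitotic genes and in 17.2% of all windows. CCAAT was in 54.2% and 34.6%, and CACGTG in 10.2% and 7.26%, of the replication and of all windows. For other replication genes, G1/S regulators and mitotic genes, the CCAAT shares were 54.8%, 39.1% and 77.8%. The CACGTG shares of these 3 lists were 11.9%, 13.0% and 18.5%. A match is a description of the letters, and binding was not measured.

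The stretches below run 5′ to 3′ on the strand of the gene and lie before the start, outside annotated exons, with E2F-type strings in capitals. They are shown because MCM6 and ORC6 are licensing genes with unlike courses under PBITE-1, and because UHRF1 had the most negative change of the 49 genes at 12 h. MCM6 and ORC6 do not stand for the others. CDC6, CDT1 and GMNN, higher at 8 h like ORC6, each held an E2F-type string in a window. ORC1 and ORC2, lower at 8 h like MCM6, held none. The MCM6 stretch (chr2:135876464-135876603, minus strand) holds 2 blocks, each with 2 overlapping strings on opposite strands. The ORC6 stretch (chr16:46689519-46689638, plus strand) holds 0. The UHRF1 stretch (chr19:4909984-4910123, plus strand) belongs to 1 of the 3 starts of that gene and holds 1.
MCM6: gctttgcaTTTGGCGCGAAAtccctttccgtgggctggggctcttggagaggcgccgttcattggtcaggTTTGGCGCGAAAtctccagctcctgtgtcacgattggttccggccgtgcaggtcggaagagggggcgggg
ORC6: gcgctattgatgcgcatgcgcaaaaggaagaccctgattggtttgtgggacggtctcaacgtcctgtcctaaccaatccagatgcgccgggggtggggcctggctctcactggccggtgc
UHRF1: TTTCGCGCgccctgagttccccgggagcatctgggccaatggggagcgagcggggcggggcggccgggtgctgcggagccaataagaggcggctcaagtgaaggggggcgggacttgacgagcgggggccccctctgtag

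Of the 11 genes with a window that were called higher at 4 h or 8 h, 5 held an E2F-type string, and of the other 32 genes with a window 16 did. Those without one among the 11 were ORC6, DBF4, PRIM2, RFC1, TK1 and ASF1B.

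Among the genes of origin firing, DBF4 was higher at all 3 times. DBF4, the activating subunit of the CDC7 kinase, was at 82.4, 75.6 and 83.6 CPM in DMSO, 128, 128 and 126 CPM at 4 h, 148, 155 and 137 CPM at 8 h, and 134, 133 and 131 CPM at 12 h. All treated samples lay above all DMSO samples, with log2 fold changes of 0.66, 0.87 and 0.72 (SE 0.05 each). In the shERG line DBF4 went the other way, from 86.9, 86.6 and 87.8 CPM to 34.2, 35.9 and 39.2 CPM with Dox (-1.26, SE 0.06). Its partner CDC7 fell in both, to -0.87 at 12 h and -0.82 after Dox. The CDC7 value at 4 h (-0.15, adjusted p = 0.023) was lost without the second DMSO sample (-0.12, adjusted p = 0.124) or the third (-0.13, adjusted p = 0.0828), and without the first 4 h sample (-0.15, adjusted p = 0.0531) or the second (-0.13, adjusted p = 0.0996).

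MCM10, a scaffold of the new fork, had the most negative response to Dox of all 49 genes, from 100, 92.7 and 97.4 CPM to 23.3, 24.5 and 23.2 CPM (-2.03, SE 0.07). At 12 h of PBITE-1 it was at -1.59, after values of 0.04 at 4 h (adjusted p = 0.63) and -0.18 at 8 h. The 8 h call was lost without the first 8 h sample (-0.13, adjusted p = 0.0666). CDC45, which rides with MCM and GINS in the active helicase, was at -1.98 at 12 h and -1.95 after Dox.

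The 4 GINS genes encode 1 complex, and their values at 12 h ran from -2.30 to -0.16. GINS3, which gave the most negative value of the group at 12 h, was at 23.7, 22.5 and 21.5 CPM in DMSO and at 5.14, 4.77 and 3.83 CPM at 12 h, 4.94-fold lower (-2.30, SE 0.15). GINS2 (-1.87) and GINS1 (-1.12) were also lower at 12 h. GINS4 was at 11.2, 11.8 and 11.9 CPM in DMSO, 14.4, 16.5 and 15.7 CPM at 4 h, 16.6, 15.3 and 16.7 CPM at 8 h and 10.7, 10.1 and 10.4 CPM at 12 h. It was therefore higher at 4 h (0.42) and 8 h (0.47) and not called at 12 h (-0.16, adjusted p = 0.19), and it fell by 1.00 with Dox. GINS4 had the lowest level per kilobase of the 49 genes in DMSO, 2.13 CPM per kb.

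The polymerase and primase genes included the second deepest change at 12 h. POLE2, the accessory subunit of the leading-strand polymerase epsilon, was at 18.1, 17.1 and 17.3 CPM in DMSO, 14.8, 12.7 and 12.0 CPM at 4 h, 7.82, 7.30 and 9.24 CPM at 8 h and 2.01, 2.68 and 1.55 CPM at 12 h. The 12 h change was -3.08 (SE 0.21, 8.47-fold lower), against -1.31 after Dox. POLE, the catalytic subunit of the same polymerase, was at -0.15, -0.07 and -0.59 at the 3 times and -0.68 after Dox. The POLE value at 8 h was not called (adjusted p = 0.15), and the 4 h call was lost without the first 4 h sample (-0.12, adjusted p = 0.0551). POLE was called lower at 8 h with upper-quartile scaling (adjusted p = 0.0449) and on the scale of library size (adjusted p = 0.00597). The same held with all 18 samples in 1 fit (adjusted p = 0.0352).

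The primase subunits parted. PRIM1, the catalytic subunit, was at 57.0, 47.5 and 47.8 CPM in DMSO, 44.5, 45.3 and 47.7 CPM at 4 h and 19.9, 20.1 and 20.6 CPM at 12 h (-1.32), and it fell by 1.54 with Dox. Its 4 h value was not called (-0.14, adjusted p = 0.086) but was without the second DMSO sample (-0.18, adjusted p = 0.04) or the third (-0.18, adjusted p = 0.0401). It was also called with upper-quartile scaling (adjusted p = 0.0409) and on the scale of library size (adjusted p = 0.0191). PRIM2, the large subunit, was at 19.6, 19.2 and 18.4 CPM in DMSO, 24.5, 27.0 and 29.4 CPM at 4 h, 25.4, 26.9 and 27.9 CPM at 8 h and 23.6, 22.6 and 21.9 CPM at 12 h. All treated samples lay above DMSO, at 0.50, 0.48 and 0.25 (adjusted p = 0.0091 at 12 h), whereas with Dox PRIM2 fell from 23.7, 23.3 and 23.0 CPM to 12.6, 17.3 and 13.8 CPM (-0.70, SE 0.10).

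POLA1, the catalytic subunit of polymerase alpha, was called higher at 4 h (0.17, adjusted p = 0.019) and lower at 12 h (-0.81). Its 4 h call rests on the second DMSO sample, which was at 80.1 CPM against 95.9 and 98.8 CPM in the other two, and on the second 4 h sample. Without the former the value was 0.08 (adjusted p = 0.30) and without the latter 0.12 (adjusted p = 0.163). The call was also lost on the scale of library size (adjusted p = 0.0864) and with no expression filter (adjusted p = 0.11). POLA2 (-1.35), POLD1 (-1.34), POLD2 (-1.28) and POLD3 (-1.08), the other subunits of polymerases alpha and delta on the list, were lower at 12 h, and these 4 genes fell by 1.00 to 1.19 with Dox.

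PCNA, the sliding clamp, had the highest level per kilobase of the 49 genes in DMSO, 265 CPM per kb, followed by TYMS at 122 CPM per kb and MCM7 at 69.7 CPM per kb. PCNA was at 401, 382 and 387 CPM in DMSO, 449, 421 and 431 CPM at 4 h, 447, 419 and 413 CPM at 8 h and 208, 219 and 203 CPM at 12 h. It was slightly higher at 4 h (0.15, SE 0.04) and 8 h (0.13, SE 0.04) and lower at 12 h (-0.89, SE 0.04). With Dox it fell from 401, 387 and 389 CPM to 138, 131 and 138 CPM (-1.53, SE 0.04). On the scale of library size the 8 h value of PCNA was 0.07 and not called (adjusted p = 0.105).

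The 5 RFC genes, which encode the clamp loader, spread widely. RFC3 was at 86.7, 76.3 and 89.9 CPM in DMSO and 28.9, 29.5 and 31.9 CPM at 12 h (-1.48). RFC2 fell to -1.25, while RFC4 (-0.64) and RFC5 (-0.68) fell less. RFC1, the large subunit, was at 165, 165 and 171 CPM in DMSO, 187, 186 and 181 CPM at 8 h and 151, 164 and 155 CPM at 12 h. Its 8 h value was 0.15 (adjusted p = 0.0022), its 12 h value -0.09 (adjusted p = 0.043) and its value after Dox -0.44. The 8 h call was lost on the scale of library size (0.08, adjusted p = 0.0766). The 12 h call of RFC1 was lost under edgeR (adjusted p = 0.052), under DESeq2 (adjusted p = 0.0806) and without single libraries, among them the third DMSO sample (-0.08, adjusted p = 0.135) and the first 12 h sample (-0.07, adjusted p = 0.158).

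FEN1, the flap nuclease that trims Okazaki fragments, was at 102, 98.9 and 97.3 CPM in DMSO, 74.6, 68.8 and 75.2 CPM at 4 h and 46.8, 47.3 and 48.9 CPM at 12 h. It fell early, to -0.45 (4 h), -0.83 (8 h) and -1.06 (12 h), and by 1.79 with Dox, the most negative of its group. LIG1, the ligase that seals those fragments, was at 80.1, 84.4 and 81.6 CPM in DMSO, 80.1, 75.6 and 77.8 CPM at 8 h and 35.7, 37.3 and 35.4 CPM at 12 h. It was not called before 12 h and was then at -1.18. The RPA genes, whose products coat single-stranded DNA, fell less at 12 h, with RPA1 at -0.41, RPA2 at -0.67 and RPA3 at -0.29 at 12 h, and with -0.45, -0.80 and -1.07 after Dox.

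The nucleotide supply genes had their lowest levels at 12 h of PBITE-1 in the parental cells. RRM2, the regulated subunit of ribonucleotide reductase, was at 363, 365 and 384 CPM in DMSO, 369, 377 and 379 CPM at 4 h, 262, 243 and 246 CPM at 8 h and 192, 150 and 172 CPM at 12 h. Its values were 0.02 (adjusted p = 0.79), -0.56 and -1.13, and with Dox it fell from 317, 303 and 297 CPM to 97.3, 99.0 and 97.1 CPM (-1.64, SE 0.04). RRM1, the large subunit, was at -0.02 (adjusted p = 0.67), -0.31 and -1.11, and at -0.99 after Dox.

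TYMS, which makes thymidylate and is the target of fluorouracil, was at 305, 296 and 301 CPM in DMSO and 125, 110 and 122 CPM at 12 h (-1.34, SE 0.04), and it fell by 1.69 with Dox. TYMS shares exon bases with the antisense gene ENOSF1, which was at -1.19 at 12 h and -0.23 after Dox. TK1, of the salvage pathway, was at 119, 113 and 99.2 CPM in DMSO, 135, 124 and 128 CPM at 4 h, 149, 155 and 151 CPM at 8 h and 72.2, 67.5 and 69.9 CPM at 12 h. TK1 was higher at 4 h (0.23) and 8 h (0.46), lower at 12 h (-0.66), and lower after Dox (-1.63). DUT was not called at 4 h (-0.01) or 8 h (-0.10) and was at -0.64 at 12 h and -1.15 after Dox. Its 8 h value was called without the second DMSO sample (-0.15, adjusted p = 0.03). It was also called with upper-quartile scaling (adjusted p = 0.0453), on the scale of library size (adjusted p = 0.00996) and with all 18 samples in 1 fit (adjusted p = 0.0383).

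In the chromatin assembly group, UHRF1, which brings the maintenance methyltransferase to newly copied DNA, had the most negative change of the 49 genes. It was at 110, 117 and 113 CPM in DMSO, 93.3, 82.1 and 88.0 CPM at 4 h, 78.1, 71.0 and 72.6 CPM at 8 h and 10.5, 8.83 and 9.95 CPM at 12 h. The drop from 8 h to 12 h alone was 7.61-fold (-2.93, SE 0.10), the 25th most negative of the 14164 genes in that comparison. Against DMSO the change at 12 h was -3.54 (SE 0.10, 11.6-fold lower), and with Dox it was -1.97 (3.91-fold lower).

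CHAF1A and CHAF1B, subunits of CAF-1, which deposits histones behind the fork, were lower at 12 h (-1.62 and -0.98) and fell by 1.05 and 0.82 with Dox. CHAF1B was at 75.8, 78.8 and 73.9 CPM in DMSO, 78.0, 72.5 and 72.1 CPM at 8 h and 39.4, 35.2 and 41.1 CPM at 12 h, so that its fall lay after 8 h. ASF1B, the chaperone that hands histones to CAF-1, was at 44.7, 46.7 and 45.4 CPM in DMSO, 54.6, 57.1 and 49.7 CPM at 4 h, 61.3, 61.9 and 57.0 CPM at 8 h and 36.5, 37.2 and 40.9 CPM at 12 h. ASF1B was thus above DMSO at 4 h (0.24) and 8 h (0.40) and below it at 12 h (-0.26), and fell by 1.42 with Dox.

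In all, 12 of the 49 genes passed the test in opposite directions in at least 2 of the 4 comparisons with vehicle, which is 24.5% of them, against 25.1% of all genes. The share lies near that of all genes and is no result about the 49. They were ORC6, CDC6, CDT1, GMNN, GINS4, DBF4, POLA1, PRIM2, PCNA, RFC1, TK1 and ASF1B. The difference between the 12 h response and the Dox response was tested directly, by an interaction term fitted over all 18 samples.

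In that test 15 of the 49 genes had a lower response at 12 h than with Dox (35.1% of all genes) and 20 a higher one (33.3%), while 14 were not called. Past a difference of 1 on the log2 scale were 3 lower genes (15.9%), UHRF1 (-1.61), POLE2 (-1.82) and MCM5 (-1.23), and 4 higher genes (13.0%), DBF4 (1.94), CDC6 (1.89), ORC6 (1.29) and ASF1B (1.12). Of the MCM2 to MCM7 genes, 5 had a lower response at 12 h and MCM4 was not called (-0.04, adjusted p = 0.54). Of the other 5 licensing genes, 4 had a higher response and ORC2 a lower one (-0.25). Of the 5 nucleotide supply genes, 4 had a higher response at 12 h, TK1 (0.93), RRM2 (0.47), DUT (0.46) and TYMS (0.30), and RRM1 a lower one (-0.16). Scaled by library size alone, 24 genes were lower and 15 higher in this test, and calls over all genes moved from 4970 lower and 4714 higher to 6667 lower and 3292 higher, with a median of all genes of -0.28. The treatments were given to different lines and their times cannot be matched.

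**Figure D5:**
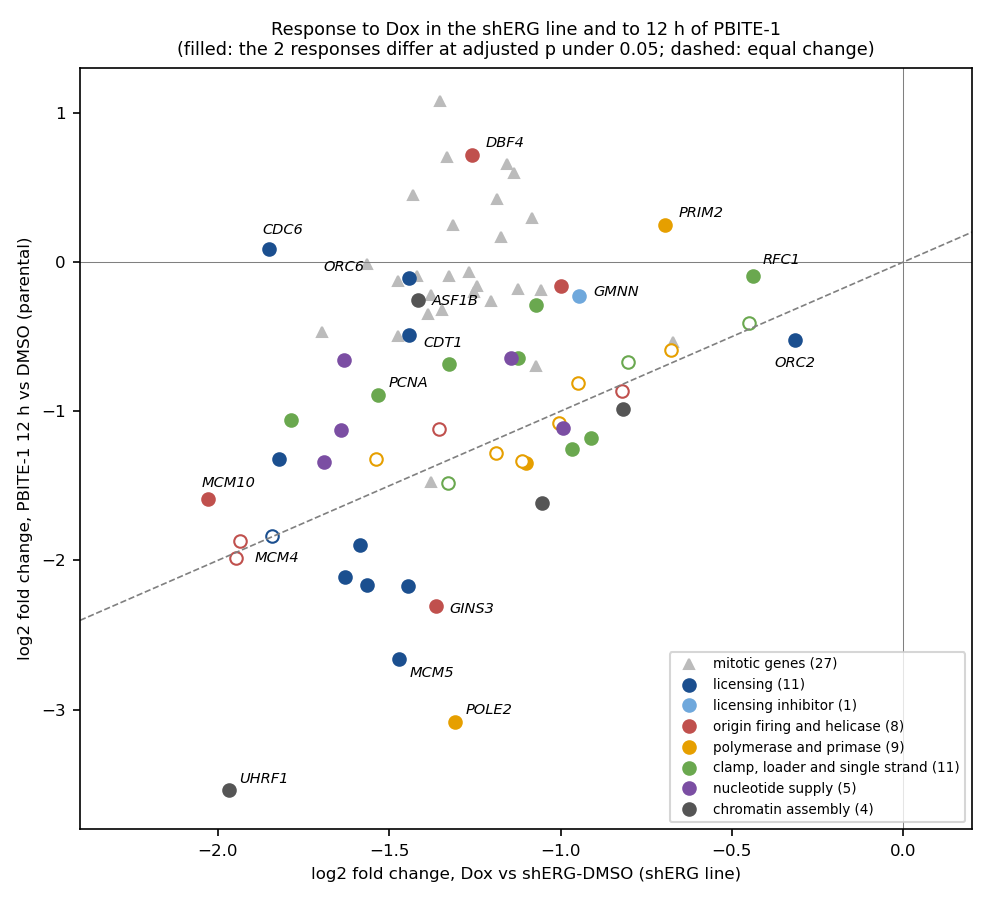
Log2 fold change after Dox in the shERG line (x axis) and at 12 h of PBITE-1 in parental cells (y axis) for the 49 genes (circles, coloured by role, filled where the 2 responses differed at an adjusted p under 0.05) and for 27 mitotic genes (grey triangles). The dashed line marks equal change; UHRF1, POLE2 and MCM5 lie below it, and DBF4, CDC6, ORC6 and most mitotic genes above it.

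Mitotic genes, a list for comparison, had a like median after Dox and another balance of calls at 12 h. With Dox, 27 of 27 mitotic genes were lower, with a median of -1.32 against -1.33 for the replication genes, where 35.3% of all genes were lower. At 12 h, 15 were lower and 9 higher, against 39.4% and 39.4% of all genes, with a median of -0.13, and the 9 stand near the share of all genes. Of the 27, 25 had a higher response at 12 h than with Dox, against 33.3% of all genes. CENPA, a histone of the centromere, rose to 1.08 at 12 h and fell by 1.35 with Dox, and BUB1, a spindle checkpoint kinase, was at 0.71 and -1.33. SPC24 (-1.48) and SPC25 (-0.70), both of the kinetochore, were the most negative of the list at 12 h.

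Other replication genes outside the 49 had medians nearer to 0. Of 40 such genes, 33 were lower and 3 higher after Dox (median -0.92), and 30 were lower and 7 higher at 12 h (median -0.69). The shares of all genes were 35.3% lower and 35.1% higher after Dox and 39.4% each way at 12 h. DTL, which helps to destroy CDT1 in S phase, was at 66.0, 70.2 and 71.0 CPM in DMSO, 62.5, 62.6 and 68.8 CPM at 8 h and 17.5, 17.2 and 18.1 CPM at 12 h (-1.97). HELLS, a chromatin remodeler, was at -1.88. At the other end stood POLD4 (2.20, SE 0.44, a gene of low counts) and RRM2B (1.18), a second small subunit of ribonucleotide reductase that is a known p53 target. RRM2B was called higher at all 3 times (0.28, 0.74 and 1.18) and was also higher after Dox, by 0.11 (adjusted p = 0.035).

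Of 23 regulators of the G1/S transition, 15 were lower and 5 higher at 12 h (median -0.67, against 39.4% and 39.4% of all genes) and 17 were lower and 5 higher after Dox (median -1.11, against 35.3% and 35.1%). E2F2 was at 55.8, 58.9 and 58.3 CPM in DMSO and 10.9, 10.7 and 10.2 CPM at 12 h (-2.44), and E2F3 was at -2.43. E2F1, named after its values were seen, had fallen by 1.59 at 12 h but was above DMSO at 8 h (0.17, adjusted p = 0.0021). With Dox these 3 genes fell by 1.74, 1.11 and 1.56. CDKN1A, the cyclin-dependent kinase inhibitor p21, was at 50.2, 46.7 and 44.5 CPM in DMSO, 162, 152 and 152 CPM at 4 h, 301, 299 and 300 CPM at 8 h and 363, 410 and 390 CPM at 12 h. It was thus 1.72 higher on the log2 scale at 4 h and 3.05 higher at 12 h. In the shERG line CDKN1A started from 12.8, 11.9 and 12.0 CPM, a level below that of the parental cells in DMSO (-2.11), and was at 20.6, 20.8 and 20.3 CPM with Dox (0.75). CDKN1B was at 1.40 at 12 h and 0.45 after Dox. The part of these regulators in the levels of the replication genes was not tested.

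Between the lines in vehicle, none of the 49 genes differed past the fold threshold, where 5% of all genes were lower and 1.19% higher. In shERG-DMSO against DMSO, 14 of the 49 genes were lower (23.3% of all genes) and 11 higher (23.3%), with a median of -0.02. The counts of 14 and 11 stand near the shares of all genes and are no result about the 49. The largest differences were ASF1B (-0.49), RRM2 (-0.44) and MCM10 (0.34), all smaller than the responses of these 3 genes to Dox. Without the second shERG-DMSO sample the count of higher genes was 6.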

How the data were processed

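RNA-seq counts per gene were analysed for the 18 VCaP samples, with groups and replicate numbers taken from the labels. The authors deposited whole-number counts per Ensembl gene, which were used as deposited. The submitters' processing notes name STAR, featureCounts and hg38, whereas the study's methods name Kallisto. Which of these made the table, the annotation and the use of strand are not given in the sources used here. Libraries were made from ribosomal RNA-depleted total RNA. Totals of 11308600 to 17483423 counts per sample set the precision, and counting error is only part of the spread between samples.

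Ensembl identifiers were matched to symbols, and 14164 of 22034 genes passed the expression filter of edgeR 4.0.16 over the 6 groups. Counts were scaled by TMM factors and tested with voom and limma 3.58.1 in R 4.3.3, with p-values adjusted by Benjamini-Hochberg over all genes tested. Dox was fitted in the 6 samples of the shERG line, PBITE-1 in the 12 parental samples, and the interaction and the vehicle samples of the lines in all 18. Lower and higher mean an adjusted p under 0.05, and the fold threshold was an absolute log2 fold change of 1. CPM values carry the TMM scaling of their own experiment, so levels of the 2 lines were compared only in the fit of all 18 samples. Levels per kb divide CPM by the summed length of all annotated exons of the gene, whether or not they are used in these cells. Orders and ratios of genes by level per kb therefore depend in part on the annotation.

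The same steps were tested on simulated data for 14164 genes. At 12 h they recovered 90 of 100 genes changed by 1 and 71 of 100 changed by 0.5 on the log2 scale, with 13 false calls. For the interaction they recovered 77 and 58 of 100, with 5 false calls. Only 100 genes per amount were changed there, whereas 5586 genes were lower and 5583 higher at 12 h in the samples. How often the steps err with that many genes changed was not tested.

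The 49 genes and the lists for comparison were chosen with earlier results of these data known. Described in full were, for each role group, the lowest and highest gene at 12 h and after Dox, genes called in opposite directions, MCM2 to MCM7, RRM1, RRM2 and TYMS, and from each other list the 2 lowest and 2 highest at 12 h. The labels do not say whether replicates came from separate cultures, and the methods call the PBITE-1 samples biological replicates. If some are technical, the p-values measure only that spread. DESeq2 1.42.0 and edgeR's quasi-likelihood test were tried as alternatives, as were other scaling factors, other filters, sample weights, other sets of samples in the fit, a replicate block and each sample left out in turn. Promoters are RefSeq windows of GRCh38.p14.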

Additional observations from a re-analysis of the deposited data

Results flagged for a closer look

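The response at 12 h of PBITE-1 differed from the response to Dox by a tested interaction for 15 genes that were lower and 20 that were higher at 12 h, of the 49. Of all genes 35.1% were lower and 33.3% higher in this test, so these counts stand near those shares and are no result about the 49. The differences past 1 on the log2 scale were 1.94 for DBF4, 1.89 for CDC6, 1.29 for ORC6 and 1.12 for ASF1B, and -1.82 for POLE2, -1.61 for UHRF1 and -1.23 for MCM5. Of all genes 15.9% were lower and 13.0% higher past 1, larger shares than among the 49. Among the 27 mitotic genes 25 were higher at 12 h than with Dox, against 33.3% of all genes.

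Between times, 48 of the 49 genes were lower at 12 h than at 8 h (32.5% of all genes). At 8 h, 31 were lower (26.3%) and 6 higher (26.7%) than at 4 h. No group had more than 3 samples, so single samples were not tested for standing apart.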

How the results depend on the processing

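For the 33 genes described in full, no log2 fold change against vehicle that passed the test changed sign under the alternatives run. Scaling by library size alone moved the interaction from 15 to 24 lower genes and from 3 to 5 past the fold threshold, as the median of all genes moved to -0.28. Between the vehicle samples of the lines the count of higher genes was 11, and 6 to 12 with a sample left out, the 6 without the second shERG-DMSO sample. The other counts stayed within 1.5 times their main value: after Dox 48 to 49 genes were lower, with PBITE-1 14 to 23 (4 h), 29 to 34 (8 h) and 42 to 45 (12 h), and those past the fold threshold after Dox were 26 to 37 of 49. Over these genes, comparisons and settings 2794 values kept their side of the threshold, 17 passed it and 27 no longer did. Those that crossed it were small, and RFC1 at 12 h crossed under several settings, the cause of which was not tested. Low counts limit POLE2, with at least 23 counts per sample.

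With the replicate number as a block, 34 genes were past the fold threshold after Dox, 16 were lower and 21 higher in the interaction, and 13 lower and 11 higher between the vehicle samples of the lines. Whether samples of the same number were paired is not stated. Correlations of deviations between samples of the same number were -0.03 to 0.067 in the parental cells and 0.0047 to 0.029 in the shERG line. Between samples of different numbers they were -0.092 to 0.076 and -0.028 to 0.021. A sample was closest to its own number in 15 of 36 and in 4 of 6 comparisons. With so few samples per group these values cannot decide whether the samples were paired.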
